A study of Mus musculus with 5 samples.

Results

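The expression of 39 genes of DNA replication was examined in mouse liver tumours, out of 22287 genes in the deposited table. The genes were chosen by symbol for their known roles in origin licensing, the replicative helicase, the polymerases, the sliding clamp and its loader, single-strand binding, Okazaki fragment joining and nucleotide supply, with a histone chaperone, an epigenetic regulator and a transcription factor beside them. Each symbol matched 1 row of the table. Tumours had been raised in C57BL/6 mice by 5 months of DEN, a liver carcinogen, together with CCl4, a liver toxicant that drives repeated regeneration, and both genotypes received both agents. RNA sequencing covered 2 wild-type (WT) libraries and 3 libraries from lnc-CTHCC-/- (KO) tumours, which lack a long non-coding RNA. The labels give neither the way the deletion was made nor the age and sex of the animals. Genotypes were taken as labelled, since the deleted transcript was not analysed here. Values are FPKM, the fragments of a gene scaled to its length in kilobases and to the fragments of the library, so that levels can be set side by side between genes.

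Before a cell divides, the origin recognition complex and Cdt1 load the ring of Mcm2 to Mcm7 onto DNA, while geminin, the product of Gmnn, holds Cdt1 in check once replication has begun. At firing, the Mcm ring joins Cdc45 and the GINS complex to form the moving helicase. Primase and polymerase alpha lay down primers, and polymerases delta and epsilon extend them while held on DNA by the PCNA clamp, which the Rfc complex loads. Most of these genes are transcribed under E2F control as cells leave the resting state. Hepatocytes of the adult liver rarely divide, and replication genes are induced in regeneration and in liver tumours.

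The promoters of these genes were searched for short sequence words, and no word stood in all of them. The genes were chosen by role and the words after the data were seen. E2F control of most of these genes was known beforehand, so the E2F words are no independent property. Of the 39 genes, 32 had a promoter in the RefSeq table of build GRCm38.p6, which gives 250 bases before to 50 after each start. The words TTTCCCGC, TTTCGCGC, TTTGCCGC and TTTGGCGC, which spell the textbook E2F consensus, were searched on both strands. At least 1 of them stood in the promoters of 12 of the 32 genes (37.5%), namely Orc1, Cdt1, Mcm3, Mcm5, Mcm6, Mcm7, Gins3, Pola1, Pold1, Rfc3, Lig1 and Uhrf1, against 4.63% of 8102 genes tested for expression and 2.60% of all 27025 genes in that table. The word CCAAT, bound by the factor NF-Y, stood on either strand in 22 of 32 (68.8%) against 42.8% of the genes tested. Related lists held these words to unlike degrees. The E2F words stood in 8 of 18 E2F, RB and G1 regulators (44.4%), 11 of 41 replication genes outside the 39 (26.8%) and 1 of 16 mitosis genes (6.25%). CCAAT stood in 14 of 16 mitosis genes (87.5%), 9 of 18 E2F, RB and G1 regulators (50%) and 18 of 41 replication genes outside the 39 (43.9%). The word TTTGAA, known from the promoters of mitotic genes, stood in 4 of 32 (12.5%) against 14.1% of the genes tested and 11 of 16 mitosis genes. These words describe letters and not bound sites.

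The 4 stretches shown here belong to members that the results turn on or that carry several of these words. Capitals mark the E2F words and CCAAT, in either orientation, and in Mcm5 and Mcm6 E2F words of both strands overlap in 1 run of capitals. Each stretch is printed 5′ to 3′ along the gene, ends before the RefSeq start and holds no exon annotated in GENCODE vM21.
Mcm6 promoter, chr1:128359706-128359955, minus strand: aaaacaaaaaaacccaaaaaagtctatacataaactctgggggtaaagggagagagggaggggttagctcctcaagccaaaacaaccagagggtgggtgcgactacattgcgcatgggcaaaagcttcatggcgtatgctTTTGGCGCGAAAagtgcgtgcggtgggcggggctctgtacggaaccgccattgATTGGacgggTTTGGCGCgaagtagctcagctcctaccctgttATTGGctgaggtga
Mcm5 promoter, chr8:75109259-75109508, plus strand: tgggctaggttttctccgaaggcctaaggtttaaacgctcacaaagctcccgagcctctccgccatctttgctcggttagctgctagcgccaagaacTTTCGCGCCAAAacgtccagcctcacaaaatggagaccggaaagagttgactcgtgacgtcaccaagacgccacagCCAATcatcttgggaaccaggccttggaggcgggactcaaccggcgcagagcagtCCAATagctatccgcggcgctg
Mcm10 promoter, chr2:5012792-5013041, minus strand: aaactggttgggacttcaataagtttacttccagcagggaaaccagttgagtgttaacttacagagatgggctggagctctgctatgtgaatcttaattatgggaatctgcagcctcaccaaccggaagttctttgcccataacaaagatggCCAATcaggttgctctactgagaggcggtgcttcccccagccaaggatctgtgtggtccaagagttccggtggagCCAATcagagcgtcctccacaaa
Rrm2 promoter, chr12:24708004-24708240, plus strand: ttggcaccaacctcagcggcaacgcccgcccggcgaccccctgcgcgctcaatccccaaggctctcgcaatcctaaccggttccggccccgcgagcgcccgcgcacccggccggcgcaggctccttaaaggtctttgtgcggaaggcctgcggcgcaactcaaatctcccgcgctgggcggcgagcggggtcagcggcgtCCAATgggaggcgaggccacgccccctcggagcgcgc
Mcm6 and Mcm5 carry both kinds of word, whereas the stretches of Mcm10 and Rrm2 carry CCAAT alone. In Mcm6 the E2F words began 110, 106 and 47 bases before the start and the CCAAT words 57 and 14 bases before it.

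The table's FPKM values summed to between 526229 (KO 1) and 552619 (WT 1) per library, and sequencing depth is unknown. Alb, the serum albumin of hepatocytes, took 14.1% to 17.1% of each sum. The WT libraries stood apart from each other. Among all 10132 genes tested (mean of at least 1 FPKM), WT 2 was above WT 1 in 72.3%, with a median log2 difference of 0.23. Leaving out WT 1 or WT 2 turned the sign of the KO against WT difference in 20 of the 34 members tested, 10 without WT 1 and 10 without WT 2, as it did in 56% of 10028 genes tested in all 3 fits. Whether libraries of the same genotype stem from separate animals is not stated, and the p-values may measure technical spread alone. Exons of 12 members overlap exons of another gene on the opposite strand, 10 of them with a protein-coding gene, and no source used here states the strand setting of the counting. Levels of Orc1, Orc6, Mcm7, Gins2, Pole, Rfc2, Rfc4, Rfc5, Fen1, Lig1, Tk1 and Chaf1a are therefore uncertain as far as reads of those neighbours were counted with them, and levels of Pcna and Tyms as far as reads were shared with the annotated pseudogenes Pcna-ps1, Pcna-ps2 and Tyms-ps.

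No replication gene differed between KO and WT tumours past the test. Of the 39 members, 34 reached the expression filter and 5 (Orc1, Gins3, Pola1, Pole and Chaf1a) did not. By limma, 0 of the 34 had an adjusted p under 0.05, where 0.00987% of all genes tested passed. The smallest adjusted p among them was 0.999. At an unadjusted p under 0.05 limma gave 1 member, Mcm10, where 3.23% of all genes tested reached that level, 1.45% as lower in KO. The mean was higher in KO in 16 members and lower in 18, where 61.4% of all genes tested were higher and 38.6% lower. Without WT 1 the split was 8 higher to 26 lower (39.7% and 60.3% of all genes tested), and without WT 2 it was 22 to 12 (73.7% and 26.3%), with 0 members past the threshold in either. The median log2 difference of the members was -0.02, beside 0.05 over all genes tested, and the members ranged from -0.76 (Mcm10) to 0.36 (Orc6).

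The intervals describe the precision of the differences on the scale used. Where libraries of a genotype do not stem from separate animals, they do not cover the spread between animals. The 95% interval of the log2 difference, on the log2(FPKM + 1) scale, had a median half-width of 0.45 over the 34 members. It lay within -1 to 1, a 2-fold change either way on that scale, in 32 of them, as it did in 92.7% of all genes tested. The exceptions were Mcm10 and Rrm2. This scale understates the change of genes with low levels, and most members are low. An interval within -1 to 1 therefore does not exclude a 2-fold change in FPKM for low members.

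**Figure D1:**
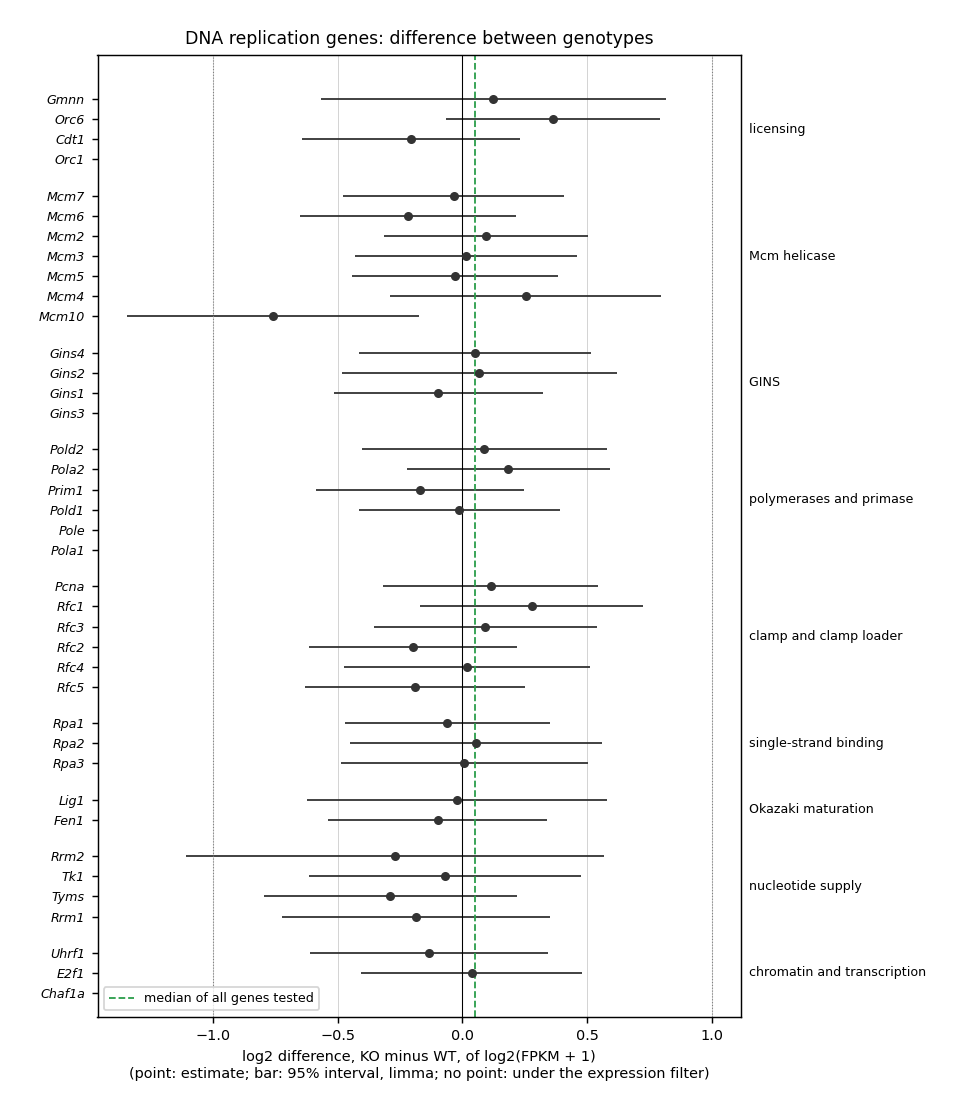
Difference in log2(FPKM + 1) between KO and WT (KO minus WT) for the replication genes by role, with points for the estimate and bars for the 95% interval of limma. The 5 members without a point were under the expression filter. Mcm10, at -0.76, is the member whose bar does not cross 0, the dashed line is the median of all genes tested (0.05), and dotted lines stand at -1 and 1.

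Levels were low and uneven within complexes. The median member had a level of 2.46 FPKM over the 5 libraries, and the 34 past the filter lay between 1.17 FPKM (Pold1) and 15.1 FPKM (Pcna), a range that holds 7223 of the genes tested. Next to Pold1 just inside the filter stood E2f1 at 1.26 FPKM, and just outside it Pole at 0.80 and Pola1 at 0.684 FPKM. Together the 39 genes took 106.92 FPKM in WT 1, 142.99 in WT 2, 118.74 in KO 1, 121.72 in KO 2 and 119.55 in KO 3. All KO sums lay between the WT sums.

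**Figure D2:**
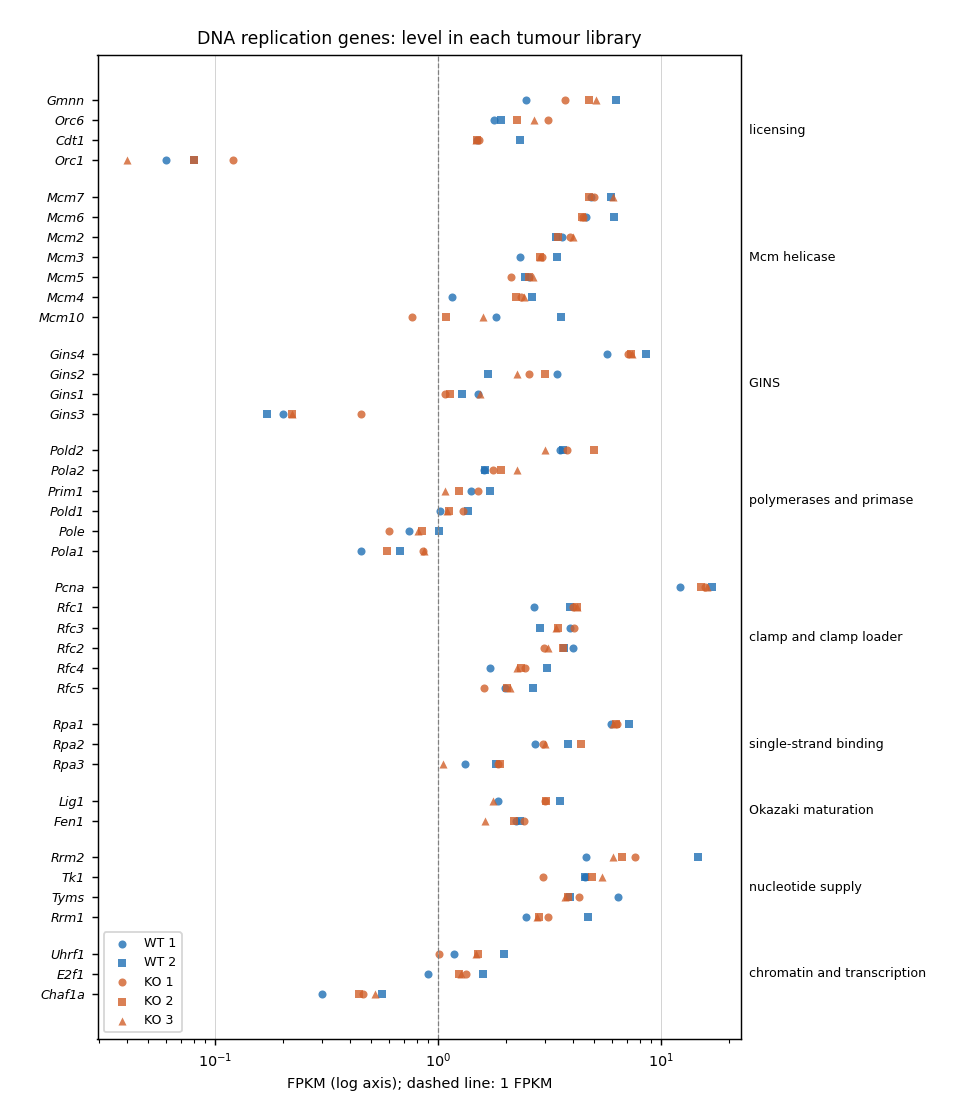
Level of each replication gene in each library in FPKM on a log axis, grouped by role, with blue for WT and orange for KO and a marker shape for each replicate number. Pcna is the highest member in all 5 libraries, with Rrm2 nearest to it in WT 2 (14.55 against 16.81 FPKM), and Orc1 is lowest at 0.04 to 0.12 FPKM.

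Licensing genes mark and load origins ahead of S phase. Orc6, a subunit of the origin recognition complex (chr8:85299632-85308278, plus strand), was at 1.78 and 1.91 FPKM in WT against 3.09, 2.25 and 2.69 FPKM in KO. All KO values lay above both WT values, as they did in 9.78% of all genes tested. Its log2 difference was 0.36 (SE 0.188, 95% interval -0.06 to 0.79), which missed the threshold (limma adjusted p = 0.999). Vps35, whose exons on the opposite strand overlap those of Orc6 by 171 bases, was at 18.49 and 31.82 FPKM in WT against 29.21, 23.36 and 28.61 FPKM in KO, and its part in the Orc6 values was not tested.

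Orc1, the ATPase subunit that opens the complex for loading, was near the bottom of the scale, at 0.06 and 0.08 FPKM in WT against 0.12, 0.08 and 0.04 FPKM in KO. Cdt1, the loader of the Mcm ring, was at 1.49 and 2.32 FPKM in WT against 1.52, 1.49 and 1.47 FPKM in KO. The KO libraries thus stood with WT 1, and WT 2 alone was high. The log2 difference of Cdt1 was -0.21 (95% interval -0.64 to 0.23), and without WT 2 it was 0.00. Gmnn, encoding the Cdt1 inhibitor geminin, was at 2.46 and 6.25 FPKM in WT against 3.68, 4.72 and 5.08 FPKM in KO, all KO values between the WT values. Its log2 difference was -0.41 without WT 1 and 0.66 without WT 2. The ratio of Cdt1 to Gmnn levels was 0.606 in WT 1, 0.371 in WT 2 and 0.413, 0.316 and 0.289 in the KO libraries, so the genotypes overlapped.

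The 6 subunits of the Mcm ring are present in equal numbers in the complex, and their transcripts were not level. In WT 1 the highest of them was 4.22 times the lowest, against 2.51 times in WT 2 and 2.13 to 2.51 times in the KO libraries. Their summed level was 19.03 FPKM in WT 1, 23.95 in WT 2, and 20.67, 20.24 and 22.39 in the KO libraries. Mcm7 and Mcm6 led at means of 5.32 and 4.80 FPKM, and Mcm4 was lowest at 2.15 FPKM.

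Mcm6, whose promoter is printed above (gene at chr1:128331590-128359664, minus strand), was at 4.58 and 6.14 FPKM in WT against 4.43, 4.42 and 4.43 FPKM in KO. All KO values lay below both WT values, as in 5.29% of all genes tested, and the nearest WT library was 0.15 FPKM above the highest of them. The log2 difference was -0.22 (95% interval -0.65 to 0.22), and without WT 2 it was -0.04. Mcm4 was at 1.15 and 2.62 FPKM in WT against 2.34, 2.23 and 2.41 FPKM in KO. Its log2 difference of 0.25 (95% interval -0.29 to 0.80) turned to -0.12 without WT 1, the library in which it was low. Mcm2, the subunit that also carries parental histones, was at 3.57 and 3.37 FPKM in WT against 3.89, 3.45 and 4.0 FPKM in KO (log2 difference 0.10, 95% interval -0.31 to 0.50). Mcm3 and Mcm5 had ratios of KO to WT means of 1.0 and 0.976, and the log2 difference of Mcm3 was -0.19 without WT 1 and 0.22 without WT 2.

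Mcm10, which is not part of the ring and acts when the helicase is activated, had the smallest p-value of the members (chr2:4989714-5012791, minus strand). It was at 1.82 and 3.55 FPKM in WT against 0.76, 1.08 and 1.59 FPKM in KO. All KO values lay below both WT values, with 0.23 FPKM between KO 3 and WT 1. The means were 2.69 ± 1.22 FPKM (SD, n = 2) for WT against 1.14 ± 0.419 FPKM (SD, n = 3) for KO, a ratio of 0.426. The log2 difference of -0.76 (SE 0.258, 95% interval -1.35 to -0.17) had an unadjusted p of 0.0170 by limma and did not pass after adjustment (limma adjusted p = 0.999). It was -1.10 without WT 1 and -0.41 without WT 2. In the authors' deposited table Mcm10 has a log2 fold change of -1.23 with a p-value of 0.00133 and a false discovery rate of 0.268. That table gives 0 members a false discovery rate under 0.05, where 0.126% of its genes pass as lower and 0.0359% as higher.

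The GINS subunits form a complex of 4, and their levels were uneven. Gins4 had a mean of 7.19 FPKM, Gins2 of 2.57, Gins1 of 1.30 and Gins3 of 0.252 FPKM. Gins4 was at 5.67 and 8.52 FPKM in WT against 7.08, 7.27 and 7.41 FPKM in KO. Gins2 went the other way between the WT libraries, at 3.39 FPKM in WT 1 and 1.67 in WT 2, with KO at 2.56, 2.99 and 2.26 FPKM between them. Gse1, whose exons overlap those of Gins2 by 2758 bases on the opposite strand, was also higher in WT 1 (3.81 FPKM) than in WT 2 (2.35 FPKM), and its part in the Gins2 values was not tested. The ratio of KO to WT means was 1.02 for Gins4 and 1.03 for Gins2. Both rest on the pair of WT libraries. The log2 difference of Gins4 was -0.21 without WT 1 and 0.31 without WT 2, and that of Gins2 was 0.43 and -0.29.

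Polymerase and primase genes were low, with a median of 1.28 FPKM over the 6 of them. Pola2, the regulatory subunit of polymerase alpha, was at 1.60 and 1.61 FPKM in WT against 1.76, 1.90 and 2.24 FPKM in KO, all KO values above both WT values. Its log2 difference was 0.18 (95% interval -0.22 to 0.59). Prim1, the catalytic subunit of primase, was at 1.40 and 1.71 FPKM in WT against 1.51, 1.24 and 1.07 FPKM in KO (log2 difference -0.17, 95% interval -0.59 to 0.25, -0.08 without WT 2). Pold1 and Pold2, subunits of polymerase delta, had log2 differences of -0.01 and 0.09, and that of Pold1 was -0.12 without WT 1 and 0.10 without WT 2. Pole, the catalytic subunit of polymerase epsilon, was at 0.74 and 1.01 FPKM in WT against 0.60, 0.84 and 0.81 FPKM in KO, and Pola1, that of polymerase alpha, at 0.45 and 0.67 FPKM in WT against 0.85, 0.59 and 0.86 FPKM in KO, so that in both the genotypes overlapped.

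Pcna, the sliding clamp, was the most abundant member (chr2:132249162-132253314, minus strand). It was at 12.15 and 16.81 FPKM in WT against 15.60, 15.02 and 16.07 FPKM in KO, all KO values between the WT values. Its mean stood at the 74.1 percentile of the genes tested. The log2 difference was 0.11 (SE 0.189, 95% interval -0.32 to 0.54), and it turned to -0.11 without WT 1. Rfc1, the large subunit of the clamp loader, was at 2.67 and 3.88 FPKM in WT against 4.03, 4.17 and 4.19 FPKM in KO, above both WT values. Its log2 difference of 0.28 (95% interval -0.17 to 0.73) was 0.07 without WT 1.

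The small clamp loader subunits had differences of both signs. Rfc2 was at 4.01 and 3.65 FPKM in WT against 2.96, 3.61 and 3.09 FPKM in KO, below both WT values, with a log2 difference of -0.20 (95% interval -0.61 to 0.22). Rfc5 was at 1.98 and 2.66 FPKM in WT against 1.60, 2.02 and 2.09 FPKM in KO (log2 difference -0.19, 95% interval -0.63 to 0.25, -0.04 without WT 2). Rfc3 and Rfc4 had log2 differences of 0.09 and 0.02, each of a sign that 1 WT library set. Without WT 1 they were 0.26 and -0.28, and without WT 2 they were -0.08 and 0.31. Summed over Rfc2 to Rfc5, levels were 11.56 and 12.22 FPKM in WT against 11.06, 11.42 and 10.82 FPKM in KO.

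Single-strand binding and fragment joining genes had log2 differences near 0 with all libraries, and 4 of these 5 turned sign with a WT library left out. Rpa1, the largest subunit of replication protein A, was at 5.95 and 7.17 FPKM in WT against 6.34, 6.26 and 6.09 FPKM in KO. Rpa1, Rpa2 and Rpa3 had log2 differences of -0.06, 0.05 and 0.01. Fen1, the flap nuclease, and Lig1, the ligase that seals Okazaki fragments, had log2 differences of -0.10 and -0.02. The 95% intervals of these 5 genes lay within -0.62 to 0.58, the bounds of Lig1. Without WT 1 the log2 difference was -0.18 for Rpa1, -0.14 for Rpa2, -0.13 for Rpa3 and -0.35 for Lig1, and without WT 2 it was 0.06, 0.25, 0.15 and 0.31. Fen1 kept its sign, at -0.12 and -0.08. Fen1 and Lig1 were lowest of all libraries in KO 3, at 1.62 and 1.75 FPKM.

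Nucleotide supply genes had a lower mean log2 level in KO in 4 of 4 with all libraries, where 38.6% of all genes tested did. Their median log2 difference was -0.23, and none passed the test. Each of the 4 signs turned with 1 library left out, WT 2 for Rrm1 and Rrm2, WT 1 for Tyms and KO 1 for Tk1. The 4 signs were the same under the 3 other scalings, and that of Tk1, from -0.05 to -0.14 there, turned to 0.14 without KO 1. Rrm2, the S-phase subunit of ribonucleotide reductase (chr12:24708241-24714146, plus strand), was at 4.61 FPKM in WT 1 and 14.55 FPKM in WT 2, against 7.61, 6.62 and 6.09 FPKM in KO. The WT libraries differed 3.16-fold and the KO values lay between them. Its log2 difference of -0.27 (SE 0.369, 95% interval -1.11 to 0.57) was -1.005 without WT 1 and 0.47 without WT 2, so WT 2 decided its direction. Rrm1, the large subunit of the same enzyme, was at 2.46 and 4.68 FPKM in WT against 3.11, 2.81 and 2.78 FPKM in KO. Its log2 difference was -0.19 (95% interval -0.72 to 0.35) and turned to 0.17 without WT 2.

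Tyms, thymidylate synthase, had the opposite order in WT, with 6.41 FPKM in WT 1 and 3.88 in WT 2, and was at 4.29, 3.81 and 3.69 FPKM in KO. Its log2 difference was -0.29 (95% interval -0.79 to 0.22) and turned to 0.01 without WT 1. Tk1, the thymidine kinase of S phase, was at 4.53 and 4.56 FPKM in WT against 2.93, 4.86 and 5.40 FPKM in KO, with the KO libraries on both sides of WT. Afmid, overlapping Tk1 by 83 bases on the opposite strand, was at 13.78 and 17.12 FPKM in WT against 15.95, 21.73 and 17.93 FPKM in KO.

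E2f1, a transcription factor that activates replication genes, was at 0.90 and 1.59 FPKM in WT against 1.33, 1.24 and 1.26 FPKM in KO. Its log2 difference was 0.04 (95% interval -0.40 to 0.48), and turned to -0.19 without WT 1 and to -0.03 with quantile normalization. Uhrf1, which brings the maintenance methyltransferase to new DNA, was at 1.18 and 1.97 FPKM in WT against 1.01, 1.51 and 1.47 FPKM in KO (log2 difference -0.13, 95% interval -0.61 to 0.34), and its direction turned without WT 2, to 0.09. Chaf1a, the large subunit of a histone chaperone of the fork, was at 0.30 and 0.56 FPKM in WT against 0.46, 0.44 and 0.52 FPKM in KO.

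The members lay further apart between the WT libraries than among the KO libraries, a difference that was not tested. On the log2(FPKM + 1) scale the median distance of WT 2 from WT 1 was 0.37, and the median distance of the highest from the lowest KO library was 0.23. The WT distance was the wider in 21 of 34 members, where 49.9% of all genes tested had it so. Over the 7223 genes in the same range of levels, both medians were 0.32. WT 2 was above WT 1 in 27 of 34 members against 72.3% of all genes tested, with a median log2 difference of 0.29 against 0.23.

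In 12 of 34 members, all KO libraries lay strictly between the WT libraries, as they did in 22.7% of all genes tested. These were Gmnn, Mcm3, Mcm4, Gins2, Gins4, Pold1, Pcna, Rfc4, Rpa1, Rrm1, Rrm2 and E2f1. In 3 members every KO value exceeded both WT values (Orc6, Pola2 and Rfc1), and in 3 every KO value was under both (Mcm6, Mcm10 and Rfc2), beside 9.78% and 5.29% of all genes tested. Of the 39 members, 20 were highest in WT 2 and 17 lowest in WT 1. After median-ratio rescaling, which brings the median difference of all genes between the WT libraries to -0.01, WT 2 was above WT 1 in 20 of 34 members with a median of 0.10, where 48.8% of all genes tested were, and all KO libraries lay between the WT libraries in 10 of 34, where 18.3% of all genes tested did.

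**Figure D3:**
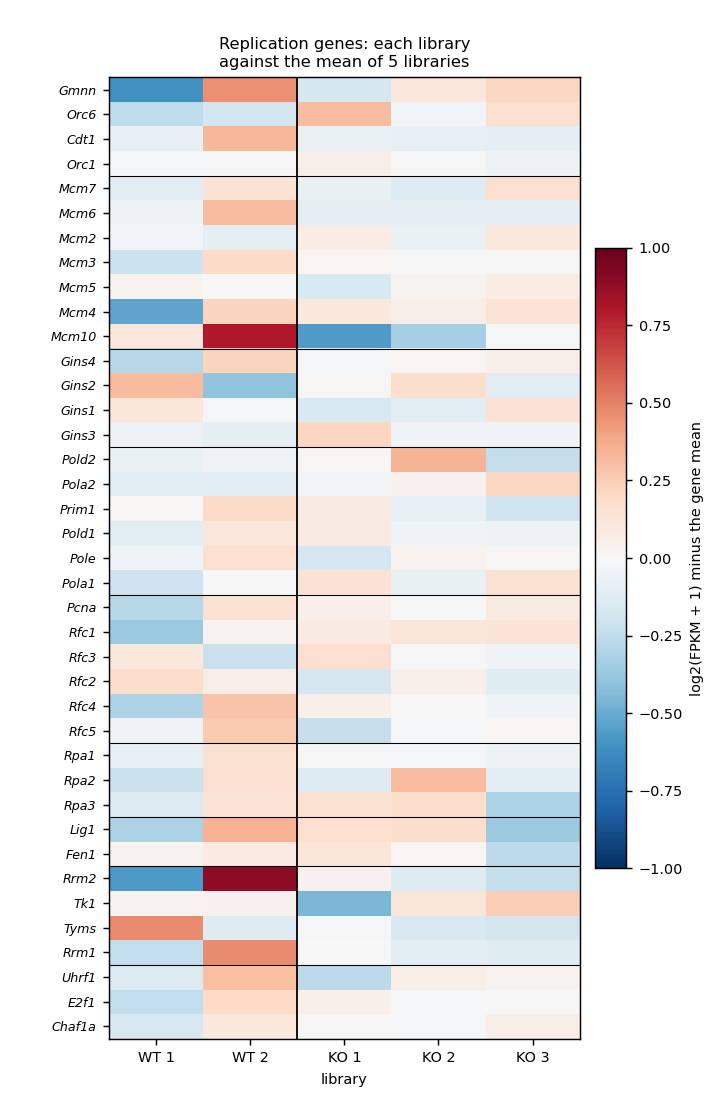
Each library's log2(FPKM + 1) minus the mean of the 5 libraries for the 39 replication genes, ordered by role as in the plot of levels, with red above and blue below the mean. WT 1 is mostly blue and WT 2 mostly red, with Gins2, Rfc3 and Tyms among the exceptions. Mcm10 and Rrm2 are the darkest cells of WT 2, and the KO columns are mostly paler, apart from Mcm10 and Tk1 in KO 1.

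Markers of other cell types also differed between the WT libraries. In bulk tissue, fewer cells of a type and less RNA per cell cannot be told apart. The summed level of 10 B and plasma cell markers was 189.71 FPKM in WT 1 and 506.6 FPKM in WT 2, against 47.28 to 142.03 FPKM in KO, and that of 8 cholangiocyte markers was 297.75 and 520.81 FPKM in WT against 245.45 to 463.69 FPKM in KO. The defining cholangiocyte keratins Krt19 and Krt7 stayed low, at 0.14 to 1.81 FPKM. The 11 T and NK cell markers summed to 7.34 FPKM in WT 1, 4.39 in WT 2 and 2.09 to 4.35 FPKM in KO. The KO mean was lower in 11 of 11, and WT 2 was above WT 1 in 1 of the 11 (Cd4). Of all genes tested, 38.6% had a lower mean log2 level, but those genes had passed the expression filter and are no like background. None of the 11 was past the expression filter, so these values are near the floor. Single libraries overlapped, as Gzmb (0.42 FPKM) and Klrb1c (0.37 FPKM) in KO 1 were above both WT libraries. The 9 hepatocyte markers summed to 129098 FPKM in WT 1, 99388 in WT 2 and 110553 to 111703 FPKM in KO, sums made up mostly of Alb and Apoa1. Against that order, 4 of the 9 (Tat, Cps1, Hnf4a and Fgb) were higher in WT 2 than in WT 1, Tat at 550.63 against 193.5 FPKM. The sums of 10 macrophage markers (148.21 and 188.06 FPKM in WT, 109.94 to 228.49 in KO), 9 stellate and fibroblast markers (90.23 and 116.17, 101.84 to 153.38), 8 endothelial markers (56.19 and 50.07, 52.4 to 83.56), 8 neutrophil markers (6.65 and 5.26, 4.92 to 9.49) and 8 erythroid markers (436.34 and 233.62, 295.84 to 449.53) overlapped between the genotypes. No marker of these lists was at 0 in all libraries, and the part of these cells in the levels of the replication genes was not tested.

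Replication genes outside the 39 were compared as a list of 49. Of these, 34 were tested, 24 had the higher mean in KO and 10 in WT, and none passed (median log2 difference 0.09, beside 0.05 over all genes tested). Without WT 1 the split was 13 higher to 20 lower, and without WT 2 it was 28 to 4. The shares of all genes tested that were higher in KO were 61.4% with all libraries, 39.7% without WT 1 and 73.7% without WT 2. All KO values lay above both WT values in 6 of the 34 tested and below both in 3 (Dut, Rbbp4 and Asf1b). The shares of all genes tested were 9.78% and 5.29%. The smallest unadjusted p-values belonged to genes with all KO values above both WT values. Orc2, another subunit of the origin recognition complex, was at 1.01 and 1.61 FPKM in WT against 3.17, 1.95 and 2.73 FPKM in KO (log2 difference 0.64, SE 0.221, limma adjusted p = 0.999). Tipin, of the fork protection complex, had a log2 difference of 0.43, Topbp1, which acts in origin firing, of 0.37 (0.12 without WT 1 and 0.63 without WT 2), and Rnaseh2a, which removes ribonucleotides from DNA, of 0.33. Cdc6, the partner of Cdt1 in loading, was at 0.44 and 0.60 FPKM in WT against 0.37, 0.39 and 0.46 FPKM in KO. Top2a, the topoisomerase of S and G2 phase, was at 1.06 and 2.04 FPKM in WT against 1.24, 0.83 and 1.20 FPKM in KO.

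Among 24 E2F, RB and G1 regulators, 20 were tested, 11 with the higher mean in KO and 9 in WT, and none passed (median log2 difference 0.06). Without WT 1 the split was 8 higher to 12 lower, and without WT 2 it was 14 to 6. Of all genes tested, 61.4% were higher in KO with all libraries, 39.7% without WT 1 and 73.7% without WT 2. Cdkn2a, which encodes the inhibitors p16 and p19 and restrains entry into S phase, was at 3.11 and 3.52 FPKM in WT against 7.32, 5.86 and 4.83 FPKM in KO (log2 difference 0.69, SE 0.210, unadjusted p = 0.0102, limma adjusted p = 0.999). E2f6, a repressor of the E2F family, was at 3.69 and 3.89 FPKM in WT against 5.87, 5.74 and 5.18 FPKM in KO (log2 difference 0.46), and E2f5 had a log2 difference of 0.35. Ccne1, cyclin E1, which drives entry into S phase, was at 6.98 and 6.24 FPKM in WT against 4.81, 5.59 and 2.42 FPKM in KO (log2 difference -0.58, and -0.30 without KO 3, its lowest library). Cdkn1a, the p53 target p21, was at 32.74 and 51.58 FPKM in WT against 50.02, 31.40 and 30.11 FPKM in KO, with overlap. Of the 20 tested, all KO values lay above both WT values in 3 (Cdkn2a, E2f6 and E2f5) and below both in 1 (Ccne1), beside 9.78% and 5.29% of all genes tested.

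Mitosis genes lay apart from the replication genes in their values. Of 20 listed, 9 were tested and 8 had a lower mean in KO, where 38.6% of all genes tested did, with a median log2 difference of -0.37 beside -0.02 for the replication members and 0.05 for all genes tested. All KO libraries lay below both WT libraries in 7 of 9, beside 5.29% of all genes tested, and none passed (smallest limma adjusted p = 0.999). Without WT 1, 9 of 10 tested were lower (median -0.52), beside 60.3% of all genes tested. Without WT 2, 8 of 8 were lower (median -0.28), beside 26.3% of all genes tested. The counts of lower genes are not free of the expression filter. Ccnb1, at means of 1.4 FPKM in WT and 0.857 FPKM in KO, passed it only through its WT levels, which left a lower sign. The same held for Mki67 through WT 2 in the fit without WT 1. The difference between the lists was not tested. Birc5, the survivin of the chromosomal passenger complex, had a log2 difference of -0.65, Ccnb2, a mitotic cyclin, of -0.53, Ube2c, the ubiquitin-conjugating enzyme of mitotic exit, of -0.50, and Cdc20, an activator of the anaphase-promoting complex, of -0.46. Without WT 2 the difference of Birc5 was -0.29 and that of Ccnb2 was -0.31, and without WT 1 that of Birc5 was -1.002. Mki67 was at 0.69 and 1.68 FPKM in WT against 0.93, 0.58 and 0.84 FPKM in KO. The summed level of the 20 mitosis genes was 33.1 and 41.02 FPKM in WT against 26.97, 25.42 and 26.14 FPKM in KO, whereas the summed KO levels of the 39 replication genes lay between those of WT.

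**Figure D4:**
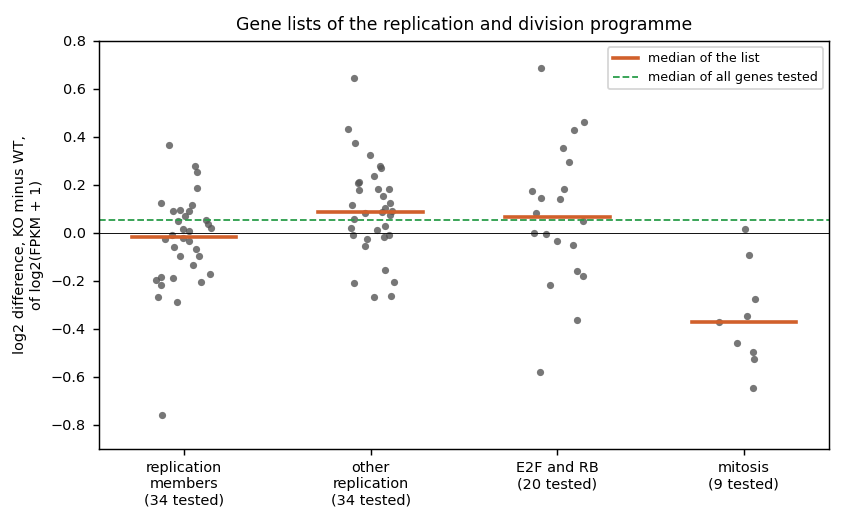
Difference in log2(FPKM + 1) between KO and WT (KO minus WT) for each tested gene of 4 lists, with a bar at the median of each list and a dashed line at the median of all genes tested (0.05). The replication members centre on -0.02 with Mcm10 at -0.76 as the lowest point, and the 9 mitosis genes centre on -0.37.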

How the data were processed

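RNA was sequenced from 2 WT and 3 KO tumour samples. The authors deposited FPKM values per library and mean FPKM per genotype, rounded to 2 decimals in the libraries, and a log2 fold change, per the file headers. The deposited p-value and false discovery rate of each gene come, per the file headers, from the authors, and no source used here names their tool. HISAT2, StringTie, limma, DESeq2, bcl2fastq 2.0 and build mm10 are listed in the submitters' processing notes without roles. FPKM gives no depth, so no counting interval was computed. Groups came from the sample titles.

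Genes with a mean of at least 1 FPKM (10132) were put on the log2(FPKM + 1) scale and compared by limma 3.58.1 in R 4.3.3 (empirical Bayes with trend, 3 residual degrees of freedom, no covariate), with Benjamini-Hochberg adjustment over all of them at 0.05, two-sided. The script was tested on simulated data. Members and lists were chosen with earlier results of these data known. Log2 differences are given with intervals for the 16 members with the smallest unadjusted p and for Pcna, Mcm2, E2f1 and Rrm2, and log2 differences without intervals for the 4 such genes of each other list; Mki67, Top2a, Cdc6 and Cdkn1a are given by level; other members, neighbouring genes and cell type markers were named after their values were seen. Motif words were chosen after the data were seen. Coordinates are from GENCODE vM21 on GRCm38, the assembly of mm10, and are 1-based; promoters are from RefSeq on GRCm38.p6. Alternatives were other pseudocounts, filters, scalings and empirical Bayes settings, a replicate block and leaving out each library. Figures used matplotlib 3.10.9 in Python 3.11.15.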

Additional observations from a re-analysis of the deposited data

How the results depend on the processing

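In none of the 15 alternatives did a member or another replication gene pass the threshold. The median log2 difference of the members stayed between -0.14 (without WT 1) and 0.09 (without WT 2). The count of all genes past the threshold, 1 with all libraries, was 0 with a pseudocount of 5, without an expression filter, with a mean of at least 5 FPKM, a common sum, median-ratio rescaling or quantile normalization, 3 with robust empirical Bayes and 0 to 17 with 1 library left out. With the replicate block it was 62, and 0 members passed there. The labels tie the samples only by number. Deviations from the genotype mean correlated at 0.0884 between WT 1 and KO 1 and at -0.241 between WT 2 and KO 2. Between unlike numbers the correlation was 0.241 for WT 1 with KO 2 and 0.319 for WT 2 with KO 3. With 2 WT libraries the deviations of WT 1 and WT 2 mirror each other, so these correlations cannot settle whether samples were paired. With 1 library of a genotype left, that library is assumed to vary like the others. Of 410 recomputed differences of 29 named genes, 401 kept their sign, all on the same side of the threshold. With E2f1 the sign turned under quantile normalization (-0.026). Leaving out libraries turned it without WT 1 for Tyms (range -0.590 to 0.0127), Mcm4 (-0.122 to 0.629), Pcna (-0.105 to 0.332) and E2f1 (-0.186 to 0.261), and without WT 2 for Cdt1 (-0.413 to 0.00188), Rrm1 (-0.543 to 0.172), Rrm2 (-1.005 to 0.466) and Uhrf1 (-0.357 to 0.089). The WT libraries differ in these genes; the cause was not tested. The split of the members was 16 higher to 18 lower, and 10 to 24 with quantile normalization. A mean of at least 5 FPKM left 5 members tested. Depth is unknown and 2 WT libraries limit precision.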
